A study of Homo sapiens with 8 samples.

Results

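The collagens are the family of triple-helical proteins that build the fibres, networks and filaments of the extracellular matrix. The gene set examined here holds every gene that GENCODE release 29 annotates as protein-coding and whose symbol has the form COL, number, A, number. It has 44 members among the 58721 genes counted, and membership was set by name alone, with no measured value. Rows were matched by Ensembl identifier, and all 44 were found.

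Messenger RNA was sequenced in bulk from CHLA-20 and NGP, both established human neuroblastoma cell lines, which are models of a childhood tumour of the sympathetic nervous system. CHLA-20 grew in IMEM with serum, insulin, transferrin and selenite, and NGP in RPMI1640 with serum alone, so line and medium cannot be told apart. Each line received the vehicle DMSO or an inhibitor of PRMT5, the enzyme that places symmetric dimethyl marks on arginine, for 6 days at a dose given only as the IC50. The samples carry the name JSK591 and the treatment text the name GSK591, and JSK591 is used below. Each of the 4 groups (CHLA-20 DMSO, CHLA-20 JSK591, NGP DMSO and NGP JSK591) had 2 libraries. Nothing states whether the 2 were separate cultures, so p-values measure the spread between these libraries, which may be technical.

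A collagen molecule is a trimer of chains, and each gene encodes a chain. Fibrillar collagens such as collagens I, III and V form the banded fibrils that give tissue its strength. Collagen IV is the network of the basement membrane, and collagen VI forms beaded filaments between cells and the matrix. Chains are hydroxylated and folded in the endoplasmic reticulum, trimmed by proteases outside the cell and crosslinked by lysyl oxidases. Fibroblasts are the best known source, but tumour cells of neural crest descent can make collagens as well.

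Libraries held 33188542 to 34914902 counts in genes, and 3 counts, the most that a gene counted 0 times could hold, came to at most 0.0904 CPM (normalised counts relative to the TMM-scaled library size). Levels are CPM with the SD of the 2 libraries of a group, and floors cover counting error only. Changes are log2 differences with their SE, with p-values from the quasi-likelihood F-test of edgeR, adjusted by the Benjamini-Hochberg method across 19395 genes, and a threshold of 0.05. "Rose" and "fell" are used for genes that passed. Of 11 neuroblastoma markers 10 were detected, with summed levels of 2487 to 4770 CPM, and CHGA stayed under 10 counts in each library. Markers of endothelium and blood summed to at most 1.15 and 0.390 CPM, and those of Schwann cells and epithelium to at most 5.56 and 5.12 CPM. The 10 fibroblast markers summed to 1219 to 1226 CPM in CHLA-20 DMSO, 1118 to 1133 in CHLA-20 JSK591, 823 to 830 in NGP DMSO and 941 to 969 in NGP JSK591, with TCF21 at 0 counts throughout. In bulk RNA, fewer cells of a type and less RNA per cell cannot be told apart.

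For 4 genes whose messenger RNA fell in CHLA-20, the 250 bases before the RefSeq start are shown to place the genes and the letters common at promoters. They come from RefSeq on GRCh38.p14, are read 5′ to 3′ on the strand of the gene, and end at the base before the start. Capitals mark matches to the GC box (GGGCGG, or CCGCCC on the other strand) and the TATA box (TATAAA, or TTTATA).
COL6A2, chr21:46097862-46098111, plus strand: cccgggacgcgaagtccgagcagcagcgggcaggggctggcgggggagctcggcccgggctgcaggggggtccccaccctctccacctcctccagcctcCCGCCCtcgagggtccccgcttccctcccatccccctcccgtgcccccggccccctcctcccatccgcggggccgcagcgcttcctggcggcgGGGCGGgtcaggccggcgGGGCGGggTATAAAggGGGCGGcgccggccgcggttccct
COL8A2, chr1:36125223-36125472, minus strand: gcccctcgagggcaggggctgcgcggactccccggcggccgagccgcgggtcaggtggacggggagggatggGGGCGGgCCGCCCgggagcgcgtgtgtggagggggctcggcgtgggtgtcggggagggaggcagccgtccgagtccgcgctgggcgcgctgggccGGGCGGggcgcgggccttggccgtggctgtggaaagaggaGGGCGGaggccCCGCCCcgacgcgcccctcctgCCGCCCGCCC
COL5A1, chr9:134641553-134641802, plus strand: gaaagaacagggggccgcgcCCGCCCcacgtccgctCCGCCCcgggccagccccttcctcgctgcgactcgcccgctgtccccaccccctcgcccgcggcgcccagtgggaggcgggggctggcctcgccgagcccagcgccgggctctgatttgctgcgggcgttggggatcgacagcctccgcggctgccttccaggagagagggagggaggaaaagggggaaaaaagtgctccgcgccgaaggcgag
COL27A1, chr9:114155287-114155536, plus strand: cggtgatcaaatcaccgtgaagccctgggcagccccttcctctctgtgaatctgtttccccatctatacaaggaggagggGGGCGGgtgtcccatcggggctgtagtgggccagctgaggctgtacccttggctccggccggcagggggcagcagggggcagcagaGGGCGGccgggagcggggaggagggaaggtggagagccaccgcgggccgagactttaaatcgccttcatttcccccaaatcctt
The COL6A2 window, with a GC content of 79.6%, held 4 GC boxes and a TATA box that begins 32 bases before the start. That of COL8A2 held 7 GC boxes in 82% GC, of which the last pair overlap. COL5A1 and COL27A1 had 2 GC boxes each, in 74% and 64.4% GC, and neither had a TATA box. None of the 4 windows held a CCAAT box (CCAAT, or ATTGG). RefSeq promoter entries were matched for 32 of the 44 genes, with 44 distinct windows. A GC box was in 24 of these (54.5%) and in 42.5% of all 34943 windows of this length, a TATA box in 8 (18.2%, against 10.8%), and a CCAAT box in 12 (27.3%, against 32%). These are matches of letters and no measure of binding.

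Detection was read from raw counts, and a gene was called detected in a line when both libraries of its DMSO or JSK591 group held at least 10 counts. CHLA-20 had 31 collagen genes detected and NGP 26, of which 22 were shared. Over all 19940 protein-coding genes the shares detected were 66.2% in CHLA-20 and 64.6% in NGP. Detected in both lines were COL1A1, COL3A1, COL5A1, COL5A2 and COL27A1 of the fibrillar class, COL4A1 and COL4A2, all 5 collagen VI genes (COL6A1, COL6A2, COL6A3, COL6A5 and COL6A6), COL7A1, COL9A2, COL9A3, COL16A1, COL18A1, COL19A1, COL23A1, COL25A1, COL26A1 and COL28A1. CHLA-20 alone passed for COL1A2, COL4A3, COL4A5, COL4A6, COL5A3, COL8A2, COL9A1, COL14A1 and COL22A1. NGP alone passed for COL10A1, COL11A1, COL13A1 and COL21A1. Some of these detections rest on 1 treatment. In CHLA-20, COL4A3 and COL5A3 passed only with DMSO, and COL4A6 and COL19A1 only with JSK591. In NGP, COL6A5 passed only with JSK591. Neither line passed for COL2A1, COL4A4, COL8A1, COL11A2, COL12A1, COL15A1, COL17A1, COL20A1 and COL24A1. With at least 1 CPM in both libraries as the limit, 24 genes were detected in CHLA-20 and 21 in NGP, and with more than 3 counts in both as the limit, 36 and 35.

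The filter on low counts kept 34 of the 44 for testing. The 10 others were COL4A3, COL4A4, COL5A3, COL8A1, COL11A2, COL12A1, COL15A1, COL17A1, COL20A1 and COL24A1, none of which exceeded 14 counts or 0.415 CPM in a library. COL4A3 and COL5A3 were detected in CHLA-20 and still fell below that filter. COL11A2, on chromosome 6, had 0 counts in each of the 8 libraries.

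Summed collagen messenger RNA was higher in NGP, and between the vehicle groups COL1A1 and COL4A2 differed by the most CPM (476 and 170). Summed over the 44 genes, the level was 735 and 778 CPM in the CHLA-20 DMSO libraries and 533 and 510 CPM in CHLA-20 JSK591. In NGP it was 1374 and 1414 CPM with DMSO and 1474 and 1426 CPM with JSK591. The sum was therefore lower with JSK591 in both CHLA-20 libraries, while the NGP groups lay close to each other, and every NGP library was above every CHLA-20 library. COL1A1 and COL4A2 were then left out, an alternative chosen after seeing the data that had to narrow the vehicle gap. The sums were 618 and 655 CPM in CHLA-20 DMSO and 621 and 636 CPM in NGP DMSO, which overlap. They were 441 and 423 CPM in CHLA-20 JSK591 and 556 and 543 CPM in NGP JSK591, so NGP stayed higher with JSK591. The median difference between the vehicle groups over the 34 tested collagen genes was -0.01 on the log2 scale, beside -0.02 over all genes. No test was made of these sums. The fibroblast marker sums were also lower with JSK591 in CHLA-20 and higher in NGP, and their part in the collagen results was not tested. Of 7 fibroblast markers tested, 3 fell and 0 rose in CHLA-20 (PDGFRB by 0.45, LUM by 0.18 and FBLN1 by 0.22 on the log2 scale). These 42.9% are near the 39.4% of all genes that passed there. In NGP PDGFRB, LUM and THY1 fell and PDGFRA and MEG3 rose (71.4%, beside 36.2% of all genes). There MEG3, a long noncoding RNA, went from 328 and 314 CPM to 463 and 426 CPM. DCN was at 135 and 134 CPM with DMSO and 135 and 136 CPM with JSK591 in CHLA-20, and it did not exceed 0.150 CPM in NGP.

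To compare genes with each other, CPM was divided by the length in kb of the longest protein-coding transcript. In CHLA-20 DMSO the highest levels per kb were those of COL6A1 (50.8 ± 1.4) and COL6A2 (49.2 ± 2.3), which did not differ beyond their spread, followed by COL1A1 (10.6 ± 0.24), COL5A1 (8.81 ± 0.29) and COL4A2 (7.49 ± 0.36). In NGP DMSO the order was COL1A1 (81.3 ± 1.8), COL6A1 (68.7 ± 1.6), COL6A2 (34.8 ± 0.71), COL4A2 (33.7 ± 0.93) and COL4A1 (8.87 ± 0.52), with COL6A2 and COL4A2 within their spread of each other. With all exonic bases as the length, an alternative chosen after seeing the data, COL1A1 (55.7 ± 1.2) and COL6A1 (54.5 ± 1.3) did not differ beyond their spread in NGP DMSO, and COL4A2 (11.3 ± 0.31) lay behind COL6A2 (22.4 ± 0.46). On that length COL4A2 was at 2.52 ± 0.12 in CHLA-20 DMSO, in 9th place, and COL22A1 (4.84 ± 0.58) took the 5th. With JSK591, COL22A1, a collagen of tissue junctions, ranked behind only COL6A2 and COL6A1 in CHLA-20 at 10.3 ± 0.095 CPM per kb, above COL1A1 at 7.09 ± 0.31.

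**Figure D1:**
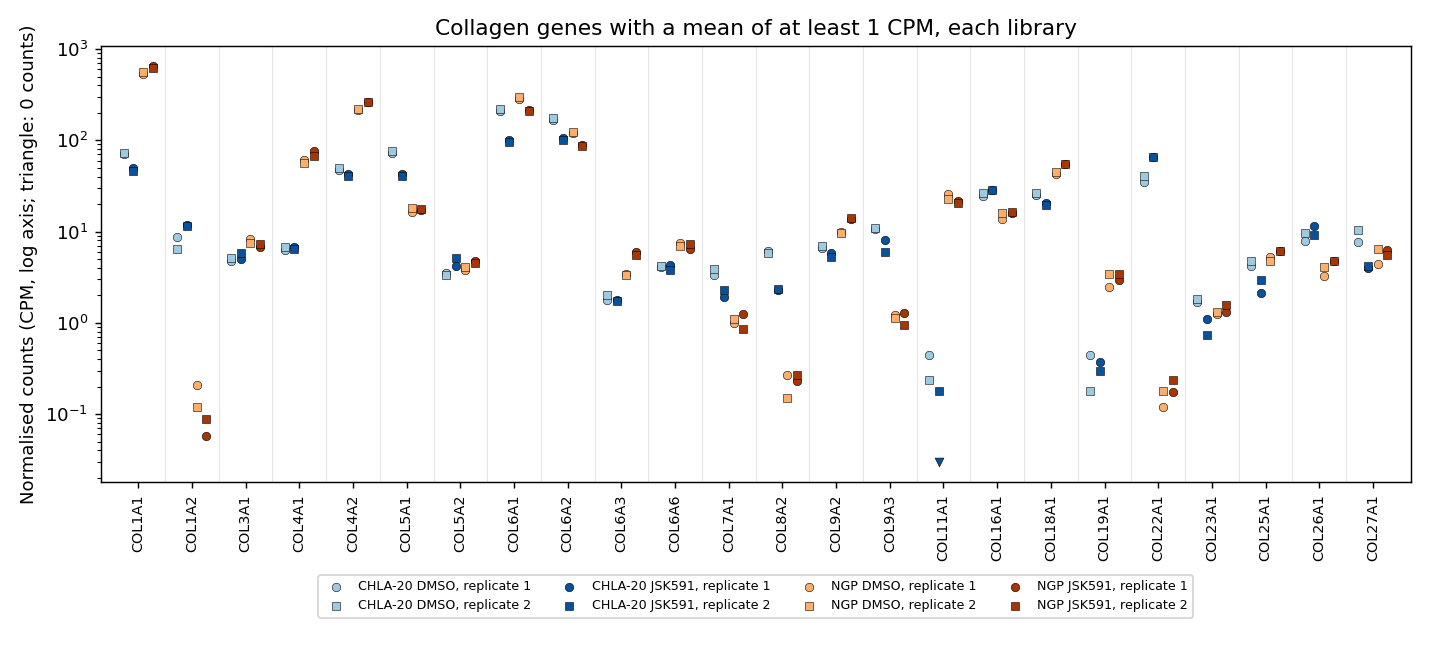
Normalised counts (CPM, log axis) of the 24 collagen genes with a mean of at least 1 CPM, 1 point per library, with colour for the group, shape for the replicate number and a triangle for 0 counts. COL1A1 sits at 69.9 and 72.1 CPM in CHLA-20 DMSO and between 539 and 656 CPM in NGP, while COL22A1, COL1A2 and COL8A2 sit below 0.3 CPM in every NGP library.

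By class, collagen VI chains took 62.9% and 62.7% of the summed level per kb in the CHLA-20 DMSO libraries and 50.3% and 50.2% in CHLA-20 JSK591. The same chains took 41.2% and 41.3% in NGP DMSO and 30.2% and 30.9% in NGP JSK591. Their share was lower with JSK591 in both lines. Collagen IV chains held 5.48% and 5.51% in CHLA-20 DMSO against 7.39% and 7.41% with JSK591, and 16.9% and 16.7% in NGP DMSO against 20.3% and 20.5%. Fibrillar collagens stayed between 14.5% and 15.7% in CHLA-20 and went from 35.3% in both NGP DMSO libraries to 41.2% and 40.1%. With all exonic bases as the length, collagen IV chains held 2.81% to 3.89% in CHLA-20 and 9.05% to 11.5% in NGP, and collagen VI was again the largest class in the DMSO groups of both lines. Shares of a whole are bound to each other, so a lower share of collagen VI leaves higher shares elsewhere.

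**Figure D2:**
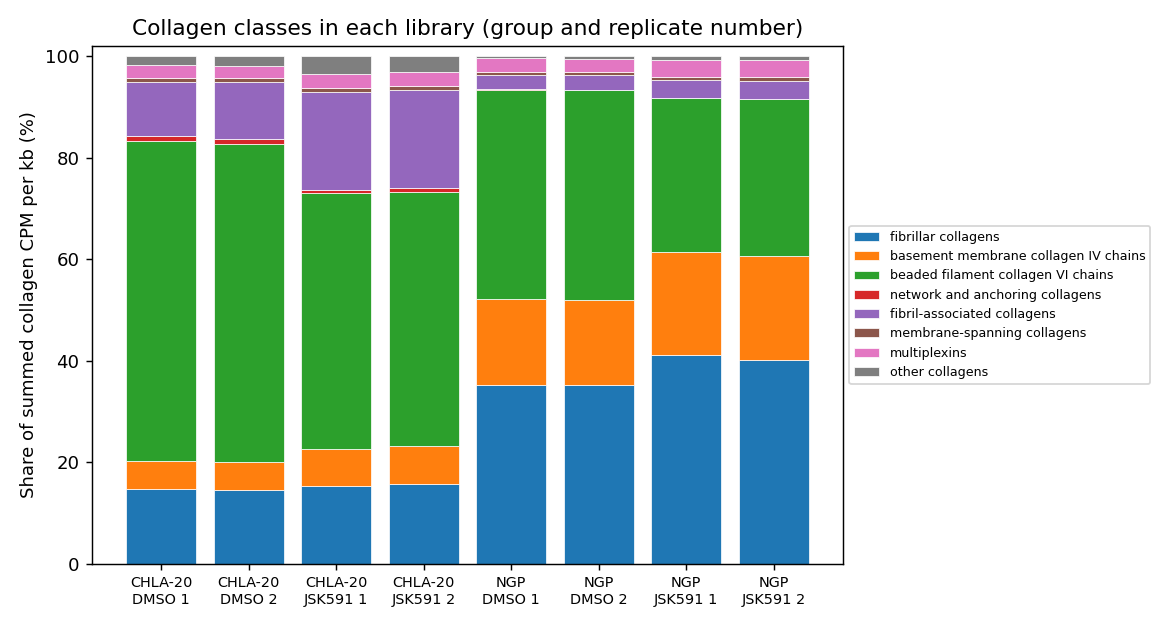
Share of the summed collagen level per kb (percent, vertical axis) held by each of 8 collagen classes in each of the 8 libraries. The green collagen VI block spans 62.9% and 62.7% in CHLA-20 DMSO and 50.3% and 50.2% in CHLA-20 JSK591, and is narrower in NGP.

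In CHLA-20, more collagen genes fell than rose with JSK591: 14 fell and 4 rose among the 34 tested (52.9% passing), beside 39.4% of all genes tested (22.4% lower and 16.9% higher). The median change of the 34 was -0.19, against -0.02 over all genes tested. In NGP, 7 rose and 3 fell (29.4% passing), beside 36.2% of all genes (16.8% higher and 19.4% lower), so the share passing was not above that of genes at large, and the median was 0.12 against 0.00. Genes whose JSK591 libraries all lay below both DMSO libraries numbered 17 in CHLA-20 (36% of all genes) and 9 in NGP (32.9%), and those all above numbered 6 (30.6%) and 12 (32.3%). Once each library was corrected for its trend in GC content, the CHLA-20 split became 12 lower and 6 higher, with 7799 of all 19395 genes passing. COL6A1, COL6A2 and COL11A1 fell in both lines. COL1A1, COL4A2, COL9A2 and COL18A1 fell in CHLA-20 and rose in NGP. The falls of COL11A1 in both lines, and those of COL4A2 and COL9A2 in CHLA-20, did not pass under some alternatives given below.

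**Figure D3:**
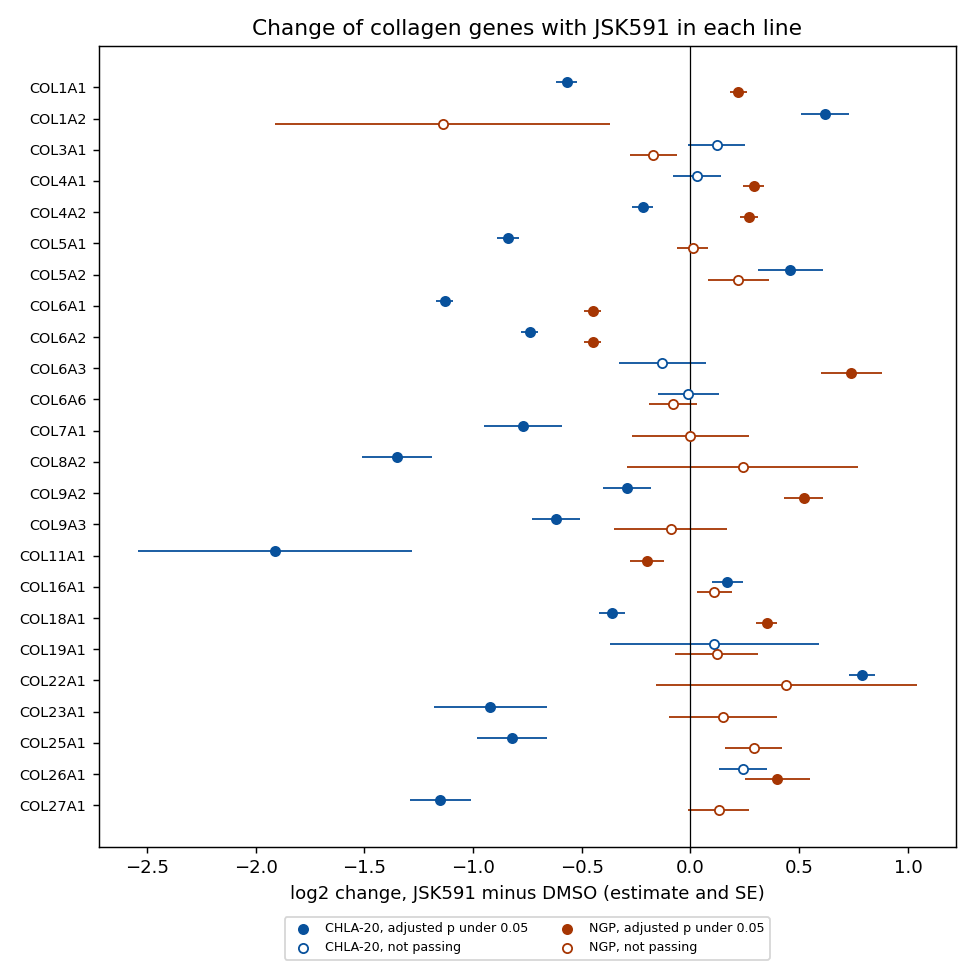
Log2 change of 24 collagen genes with JSK591 in CHLA-20 (blue) and NGP (brown), with bars of 1 SE and filled points for an adjusted p under 0.05. COL6A1 and COL6A2 lie left of 0 in both lines, COL1A1, COL4A2, COL9A2 and COL18A1 lie left in CHLA-20 and right in NGP, and COL1A2 and COL22A1 lie right in CHLA-20 with wide bars in NGP.

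Of all collagen genes, COL6A1 lost the most CPM with JSK591 in both lines. It encodes the alpha 1 chain of collagen VI (chr21:45981737-46005050), and its levels were 211 and 219 CPM in CHLA-20 DMSO, 101 and 94.9 in CHLA-20 JSK591, 286 and 296 in NGP DMSO and 213 and 212 in NGP JSK591. The groups did not overlap in either line. COL6A1 fell by 1.13 ± 0.04 in CHLA-20 and by 0.45 ± 0.04 in NGP on the log2 scale (edgeR adjusted p = 2.89e-32 and 2.42e-15), and the loss was larger in CHLA-20 (difference 0.68 ± 0.06, edgeR adjusted p = 2.73e-15, or 0.44 with the GC trend removed). COL6A2, the alpha 2 chain, lies 93.0 kb further along on the same strand (chr21:46098097-46132849). It stood at 165 and 176 CPM in CHLA-20 DMSO, 105 and 99.5 in CHLA-20 JSK591, 119 and 122 in NGP DMSO and 89.3 and 87.5 in NGP JSK591. Again the groups were apart, and COL6A2 fell by 0.74 ± 0.04 in CHLA-20 and 0.45 ± 0.04 in NGP (edgeR adjusted p = 7.44e-23 and 3.76e-13). Its difference between the lines, 0.29 ± 0.06 (edgeR adjusted p = 9.46e-05), became 0.01 with the GC trend removed (adjusted p = 0.919).

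The alpha 3 chain behaved otherwise. COL6A3 (chr2:237324003-237414375) was at 1.80 and 2.01 CPM in CHLA-20 DMSO, 1.76 and 1.72 in CHLA-20 JSK591, 3.46 and 3.36 in NGP DMSO and 5.92 and 5.50 in NGP JSK591. The NGP JSK591 libraries were the highest of all. COL6A3 rose by 0.74 ± 0.14 in NGP (edgeR adjusted p = 2.11e-05), did not pass in CHLA-20 (-0.13 ± 0.20, edgeR adjusted p = 0.651), and the lines differed (0.88 ± 0.25, edgeR adjusted p = 0.00461). Per kb, the ratio of COL6A1 to COL6A3 RNA was 286 ± 14 in CHLA-20 DMSO and 143 ± 4.5 with JSK591, and 217 ± 9.7 and 94.5 ± 4.6 in NGP. COL6A1 to COL6A2 went from 1.03 ± 0.020 to 0.785 ± 0.0087 in CHLA-20 and was 1.97 ± 0.0061 and 1.96 ± 0.022 in NGP. With all exonic bases as the length, an alternative chosen after seeing the data, the ratio of COL6A1 to COL6A2 in CHLA-20 was 1.27 and 0.970. COL6A6, a chain that can take the place of alpha 3, was at 3.84 to 4.33 CPM in CHLA-20 and 6.38 to 7.57 CPM in NGP and passed in neither line, as did COL6A5 at or under 0.773 CPM.

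Among fibrillar collagens, 4 of 8 tested fell and 2 rose in CHLA-20, a share of 75% beside 39.4% of all genes, with a median change of -0.71 beside -0.02. The 8 include COL2A1 (-1.39, not passing) and COL11A1 (-1.91, passing), which were not detected in CHLA-20. They had at most 8 and 15 counts in a library there, and both lie below that median, so it rests in part on near-absent genes. NGP had 1 rise and 1 fall, or 25% beside 36.2%, with a median of -0.08 beside 0.00. COL1A1 encodes the alpha 1 chain of collagen I (chr17:50183289-50201632). Its levels were 69.9 and 72.1 CPM in CHLA-20 DMSO, 49.2 and 46.2 in CHLA-20 JSK591, 539 and 556 in NGP DMSO and 656 and 618 in NGP JSK591. The treated libraries lay below vehicle in CHLA-20 and above it in NGP. COL1A1 fell by 0.57 ± 0.05 in CHLA-20 and rose by 0.22 ± 0.04 in NGP (edgeR adjusted p = 1.09e-15 and 1.4e-06), and the difference was 0.79 ± 0.06 (edgeR adjusted p = 1.38e-16).

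The partner chain of collagen I did not follow COL1A1. COL1A2 (chr7:94394561-94431232) was at 8.67 and 6.46 CPM in CHLA-20 DMSO and 11.7 and 11.6 in CHLA-20 JSK591, and the groups were apart. It rose by 0.62 ± 0.11 in CHLA-20 (edgeR adjusted p = 4.33e-06). In NGP it was close to absent, with 7 and 4 counts in the DMSO libraries and 2 and 3 with JSK591, too few to show a change (edgeR adjusted p = 0.261). Since the chains of COL1A1 and COL1A2 join in the usual collagen I molecule, the ratio of their RNA per kb was also computed. It was 7.73 ± 1.8 in CHLA-20 DMSO and 3.29 ± 0.11 with JSK591. No ratio is given for NGP because of the low counts of COL1A2.

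COL5A1 and COL5A2 encode the chains of collagen V, which sets fibril width. COL5A1 (chr9:134641774-134844843) was at 72.9 and 76.4 CPM in CHLA-20 DMSO, 42.9 and 40.5 in CHLA-20 JSK591, 16.4 and 18.2 in NGP DMSO and 17.3 and 17.5 in NGP JSK591. The NGP groups overlapped and those of CHLA-20 did not. COL5A1 fell by 0.84 ± 0.05 in CHLA-20 (edgeR adjusted p = 6.54e-21), was at 0.01 ± 0.07 in NGP (edgeR adjusted p = 0.950), and the lines differed by 0.85 ± 0.09 (edgeR adjusted p = 1.42e-11). COL5A2 rose in CHLA-20 by 0.46 ± 0.15 (3.49 and 3.32 CPM against 4.21 and 5.17 CPM, edgeR adjusted p = 0.00807). Without CHLA-20 JSK591 replicate 2 the COL5A2 change was 0.31 (edgeR adjusted p = 0.191), and DESeq2 gave an adjusted p of 0.0548. The RNA of COL5A1 stood to that of COL5A2 per kb as 18.3 ± 1.3 in CHLA-20 DMSO and 7.53 ± 1.4 with JSK591, and as 3.63 ± 0.056 and 3.15 ± 0.14 in NGP.

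COL27A1, a fibrillar collagen of developing cartilage (chr9:114155560-114312511), showed the same contrast of lines. It was at 7.60 and 10.5 CPM in CHLA-20 DMSO, 3.98 and 4.19 in CHLA-20 JSK591, 4.38 and 6.38 in NGP DMSO and 6.32 and 5.47 in NGP JSK591. Only the CHLA-20 groups were apart. COL27A1 fell by 1.15 ± 0.14 in CHLA-20 (edgeR adjusted p = 2.52e-10), with 0.13 ± 0.14 in NGP (edgeR adjusted p = 0.499) and a difference of 1.28 ± 0.20 (edgeR adjusted p = 5.05e-07).

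COL11A1, a minor fibrillar chain of cartilage (chr1:102876467-103108872), was chiefly an NGP gene, at 25.5 and 23.0 CPM with DMSO and 21.6 and 20.6 CPM with JSK591. CHLA-20 had 15 and 8 counts with DMSO and 0 and 6 with JSK591. The fall in CHLA-20 (-1.91 ± 0.63, edgeR adjusted p = 0.0114) rests on those few counts and did not pass without CHLA-20 DMSO replicate 1 (-1.39) or without CHLA-20 JSK591 replicate 1 (-0.92). Without CHLA-20 JSK591 replicate 2, which leaves 0 counts with JSK591, the fitted value was -6.55. In NGP it was small (-0.20 ± 0.08, edgeR adjusted p = 0.0417) and did not pass with DESeq2 (adjusted p = 0.137), without NGP DMSO replicate 1 (-0.15) or without NGP JSK591 replicate 2 (-0.17). COL3A1, the chain of collagen III in elastic tissues, passed in neither line, at 4.82 and 5.16 CPM in CHLA-20 DMSO, 4.96 and 5.89 in CHLA-20 JSK591, 8.38 and 7.43 in NGP DMSO and 6.73 and 7.32 in NGP JSK591.

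Collagen IV of the basement membrane was represented mainly by COL4A1 and COL4A2, which lie head to head on chromosome 13. Their RefSeq starts, at 110307157 on the minus strand and 110307284 on the plus strand, are 127 bases apart. COL4A1 was at 6.30 and 6.79 CPM in CHLA-20 DMSO, 6.81 and 6.51 in CHLA-20 JSK591, 61.1 and 56.3 in NGP DMSO and 75.7 and 67.7 in NGP JSK591. COL4A2 was at 47.0 and 50.3 CPM in CHLA-20 DMSO, 42.8 and 41.0 in CHLA-20 JSK591, 214 and 223 in NGP DMSO and 262 and 264 in NGP JSK591. In NGP the treated libraries were above vehicle for both genes. COL4A1 rose there by 0.29 ± 0.05 and COL4A2 by 0.27 ± 0.04 (edgeR adjusted p = 7.76e-06 and 5.13e-08). In CHLA-20, COL4A1 did not pass (0.03 ± 0.11, edgeR adjusted p = 0.883), while COL4A2 fell by 0.22 ± 0.05 (edgeR adjusted p = 0.000311), a call that ended with the GC trend removed (-0.07, adjusted p = 0.196) and without CHLA-20 DMSO replicate 2 (-0.14, adjusted p = 0.0728). The lines differed for COL4A2 (0.48 ± 0.06, edgeR adjusted p = 9.61e-09, or 0.27 with the GC trend removed). The COL4A1 rise in NGP was 0.18 without NGP JSK591 replicate 1. For COL4A1 the difference between lines, 0.26 ± 0.12, missed the threshold (edgeR adjusted p = 0.0944).

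The remaining collagen IV chains, which serve kidney, lung and other specialised membranes, were low or not detected. COL4A5 had 64, 45, 79 and 50 counts in the CHLA-20 libraries and 0, 2, 0 and 0 in those of NGP. COL4A6 did not exceed 0.506 CPM in any library. COL18A1 encodes a basement membrane multiplexin, whose end fragment is endostatin (chr21:45405137-45513720). It was at 25.3 and 26.3 CPM in CHLA-20 DMSO, 20.4 and 19.7 in CHLA-20 JSK591, 42.3 and 44.4 in NGP DMSO and 55.5 and 55.0 in NGP JSK591. Treated libraries were below vehicle in CHLA-20 and above it in NGP. COL18A1 fell by 0.36 ± 0.06 and rose by 0.35 ± 0.05 respectively (edgeR adjusted p = 3.34e-06 and 1.23e-07), and the difference was 0.71 ± 0.08 (edgeR adjusted p = 3.05e-10). With the GC trend removed the change in CHLA-20 was -0.17 and the difference 0.42, and both still passed. Of its exonic bases 16.4% are shared with other genes, SLC19A1 the most, and whether reads were counted by strand is unknown. The same limit holds for related genes named below, such as PPIB (27.2%), LOXL3 (19.3%), PCOLCE (16.6%), MRC2 (12.6%) and HSPG2 (11.7%).

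Network and anchoring collagens fell in CHLA-20 in 2 of 3 tested genes, COL8A2 and COL7A1, beside 22.4% of all genes, and 0 of the 3 passed in NGP, beside 36.2%. COL8A2 encodes a chain of the hexagonal network of Descemet's membrane (chr1:36095236-36125220). It went from 6.10 and 5.81 CPM to 2.31 and 2.35 CPM in CHLA-20, and no NGP library exceeded 0.268 CPM. COL8A2 fell by 1.35 ± 0.16 in CHLA-20 (edgeR adjusted p = 1.85e-10). COL7A1, the anchoring fibril collagen of skin (chr3:48564073-48595267), went from 3.37 and 3.85 CPM to 1.93 and 2.29 CPM in CHLA-20 and was at 0.984 and 1.11 CPM in NGP DMSO and 1.24 and 0.853 CPM in NGP JSK591. COL7A1 fell by 0.77 ± 0.18 in CHLA-20 (edgeR adjusted p = 0.000412).

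Fibril-associated collagens, which coat fibrils, moved in both directions in CHLA-20, with 2 of 8 tested genes higher and 2 lower. These 50% stand beside 39.4% of all genes, and the median was -0.01 beside -0.02. COL22A1 (chr8:138588235-138914006) was the strongest rise. It went from 34.7 and 41.1 CPM to 66.0 and 65.2 CPM in CHLA-20, a rise of 0.79 ± 0.06 (edgeR adjusted p = 6.88e-18), and had only 4 to 8 counts in each NGP library. COL16A1, found near small fibrils, was at 24.4 and 26.4 CPM in CHLA-20 DMSO and 28.5 in both treated libraries. Its call there (0.17 ± 0.07, edgeR adjusted p = 0.0370) was not kept by DESeq2 (adjusted p = 0.128), without CHLA-20 DMSO replicate 1 (0.11), or without CHLA-20 JSK591 replicate 1 or 2 (0.17 each), and it was 0.32 with the GC trend removed. COL14A1 had 38, 38, 39 and 45 counts in CHLA-20 and 0, 0, 3 and 1 in NGP.

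Collagen IX covers the fibrils of cartilage. COL9A2 (chr1:40300487-40317813) was at 6.60 and 6.93 CPM in CHLA-20 DMSO, 5.86 and 5.20 in CHLA-20 JSK591, 9.87 and 9.56 in NGP DMSO and 13.8 and 14.0 in NGP JSK591. It rose by 0.52 ± 0.09 in NGP (edgeR adjusted p = 4.89e-06), and the lines differed by 0.81 ± 0.15 (edgeR adjusted p = 1.33e-05). The fall in CHLA-20 (-0.29 ± 0.11, edgeR adjusted p = 0.0360) did not pass in 9 of the 14 alternatives, where the adjusted p reached 0.447. They include leaving out CHLA-20 DMSO replicate 1 (-0.32) or 2 (-0.23), CHLA-20 JSK591 replicate 2 (-0.21), or NGP DMSO replicate 1, NGP DMSO replicate 2 or NGP JSK591 replicate 1 (-0.26 each). COL9A3 (chr20:62816244-62841159) went from 10.6 and 10.9 CPM to 8.05 and 5.92 CPM in CHLA-20 and was at 1.22 and 1.14 CPM in NGP DMSO and 1.27 and 0.941 CPM in NGP JSK591. It fell by 0.62 ± 0.11 in CHLA-20 (edgeR adjusted p = 8.25e-06), and by 0.41 without CHLA-20 JSK591 replicate 2.

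Membrane-spanning collagens sit in the plasma membrane of neurons and epithelial cells and can be shed. COL25A1, known from neuromuscular innervation (chr4:108808725-109302752), was at 4.17 and 4.77 CPM in CHLA-20 DMSO, 2.11 and 2.97 in CHLA-20 JSK591, 5.22 and 4.74 in NGP DMSO and 6.06 and 6.09 in NGP JSK591. It fell by 0.82 ± 0.16 in CHLA-20 (edgeR adjusted p = 1.87e-05), was at 0.29 ± 0.13 in NGP (edgeR adjusted p = 0.0796), and the lines differed by 1.11 ± 0.20 (edgeR adjusted p = 2.03e-05). COL23A1 (chr5:178237618-178590555) was at 1.69 and 1.81 CPM in CHLA-20 DMSO, 1.10 and 0.743 in CHLA-20 JSK591, 1.25 and 1.32 in NGP DMSO and 1.30 and 1.56 in NGP JSK591. Its fall in CHLA-20 (-0.92 ± 0.26, edgeR adjusted p = 0.00273) did not pass without CHLA-20 JSK591 replicate 2 (-0.67, adjusted p = 0.0887). Of the other collagens, COL26A1 rose in NGP (0.40 ± 0.15, edgeR adjusted p = 0.0247), at 3.22 and 4.08 CPM with DMSO and 4.82 CPM in both treated libraries. That call ended in 6 of the 14 alternatives, among them leaving out NGP DMSO replicate 1 (0.22), NGP JSK591 replicate 1 (0.38) or NGP JSK591 replicate 2 (0.41).

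The 2 treatment contrasts were compared by an interaction term, the change in NGP minus that in CHLA-20. It passed for 13 of the 34 tested collagen genes (38.2%), all in the direction of a higher value in NGP, beside 27.7% of all genes tested (15.2% in that direction and 12.5% in the other). The 13 were COL1A1, COL4A2, COL5A1, COL6A1, COL6A2, COL6A3, COL8A2, COL9A2, COL11A1, COL18A1, COL23A1, COL25A1 and COL27A1. The median over the 34 was 0.39, against 0.03 over all genes. In the other direction COL4A6 came nearest to a call (edgeR adjusted p = 0.0722), with no more than 17 counts in a library. COL1A2 followed (-1.76 ± 0.78, edgeR adjusted p = 0.0851), and it passed without CHLA-20 DMSO replicate 1 (-1.99). Its NGP side rests on 7 and 4 counts with DMSO and 2 and 3 with JSK591, too few to show a change there.

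Between the vehicle groups, 14 collagen genes were higher in NGP and 13 lower, 79.4% of the 34 tested beside 75.5% of all genes (36.6% higher and 38.9% lower), a share close to that of genes at large. The libraries of the vehicle groups did not overlap for 15 collagen genes higher and 14 lower in NGP, beside 42.5% and 44.1% of all genes. A gene that entered the test only through the line where it is high had to differ, so these counts describe the levels. COL1A1 was higher in NGP DMSO by 2.95 ± 0.04, COL4A1 by 3.16 ± 0.07 and COL4A2 by 2.17 ± 0.04 on the log2 scale (edgeR adjusted p = 3.12e-56, 2.77e-44 and 6.03e-48). On the CHLA-20 side, the difference was -2.11 ± 0.06 for COL5A1 (edgeR adjusted p = 3.46e-40). COL22A1 and COL1A2 entered the test only through CHLA-20, so their counts alone are given. COL22A1 had 1172 and 1388 counts in CHLA-20 DMSO against 4 and 6 in NGP DMSO. COL1A2 had 293 and 218 against 7 and 4. COL14A1, with 76 counts in the CHLA-20 DMSO group and 0 in NGP DMSO, was at least 25.1-fold higher in CHLA-20, taking 3 counts over the group as the floor. COL6A1 and COL6A2 split, with 0.44 ± 0.04 and -0.50 ± 0.04 (edgeR adjusted p = 4.42e-16 and 4.16e-17). With the GC trend removed COL6A1 was at 0.82 and COL6A2 at -0.06 (adjusted p = 0.0877).

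The machinery that makes, trims, binds and degrades collagen was read from 5 further lists. Of 20 tested genes of collagen folding and modification, 12 fell and 3 rose in CHLA-20 (75% passing, beside 39.4% of all genes; median -0.16, beside -0.02). In NGP 9 fell and 3 rose (60%, beside 36.2%; median -0.13, beside 0.00). PLOD3, a lysyl hydroxylase and glycosyltransferase, went from 124 and 127 CPM to 101 and 99.1 CPM in CHLA-20 and fell by 0.33 ± 0.04 (edgeR adjusted p = 4.54e-09), or 0.19 with the GC trend removed. PLOD1, another lysyl hydroxylase, fell in NGP by 0.55 ± 0.04 (edgeR adjusted p = 4.49e-17). The collagen chaperone SERPINH1, or HSP47, ran against the list in CHLA-20. It was at 38.8 and 36.4 CPM in CHLA-20 DMSO, 43.1 and 43.7 in CHLA-20 JSK591, 119 and 123 in NGP DMSO and 106 and 111 in NGP JSK591. SERPINH1 thus rose by 0.21 ± 0.05 in CHLA-20 and fell by 0.16 ± 0.04 in NGP (edgeR adjusted p = 0.000851 and 0.00165). P4HB, a subunit of prolyl hydroxylase, rose in CHLA-20 (0.16 ± 0.04, edgeR adjusted p = 0.000444, or 0.26 with the GC trend removed) and did not pass in NGP (-0.02 ± 0.04, edgeR adjusted p = 0.688).

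Procollagen processing and crosslinking had 5 falls and 1 rise among 13 tested genes in CHLA-20 (46.2% passing, median -0.22) and 3 rises and 0 falls in NGP (23.1%, median 0.09). The share was near that of all genes in CHLA-20 (39.4%) and under it in NGP (36.2%). The NGP rises were those of BMP1, TLL1 and LOXL1, and none passed with DESeq2 (adjusted p = 0.116, 0.173 and 0.124). The lysyl oxidases LOXL2 and LOXL3 fell in CHLA-20 by 0.91 ± 0.16 and 0.59 ± 0.08 (edgeR adjusted p = 5.84e-06 and 2.98e-09). PCOLCE, which speeds removal of the procollagen end piece, rose there by 0.32 ± 0.04 (edgeR adjusted p = 8.28e-11). LOX, the founding member, had a mean of 1.84 ± 0.63 CPM in CHLA-20 DMSO and 46.9 ± 2.9 CPM in NGP DMSO. Its call in CHLA-20 (-0.54 ± 0.22, edgeR adjusted p = 0.0404), where the groups overlapped, did not pass in 8 of the 14 alternatives. Among these were leaving out CHLA-20 DMSO replicate 2 (-0.12), CHLA-20 JSK591 replicate 1 (-0.30), or NGP DMSO replicate 1, NGP DMSO replicate 2 or NGP JSK591 replicate 1 (-0.51 each). It was -0.85 without CHLA-20 DMSO replicate 1 and -0.82 without CHLA-20 JSK591 replicate 2.

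Of 7 tested collagen receptors, 3 fell and 2 rose in CHLA-20 (71.4%, beside 39.4% of all genes; median -0.05), and 3 fell and 0 rose in NGP (42.9%, near the 36.2% of all genes; median -0.06). MRC2, a receptor that takes up collagen for breakdown, went from 68.2 and 75.7 CPM to 29.9 and 27.7 CPM in CHLA-20, where it fell by 1.32 ± 0.06, and fell by 0.44 ± 0.05 in NGP (edgeR adjusted p = 1.04e-28 and 1.05e-09). DDR2, a receptor kinase for fibrillar collagen, fell by 0.40 ± 0.04 and 0.35 ± 0.04 (edgeR adjusted p = 2.22e-13 and 3.42e-11). ITGB1, the shared beta chain of collagen-binding integrins, passed in neither line (-0.05 ± 0.04 and -0.06 ± 0.04, edgeR adjusted p = 0.317 and 0.193).

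Of 9 tested genes of collagen degradation and its inhibitors, 6 rose and 1 fell in NGP (median 0.21), beside 16.8% higher and 19.4% lower over all genes. In CHLA-20 4 rose and 3 fell (median 0.01), beside 16.9% and 22.4%. The NGP rise of TIMP3 did not pass with DESeq2 (adjusted p = 0.06). Some calls ended when 1 library was left out. In NGP, TIMP2 was at 0.11 without NGP JSK591 replicate 1, and CTSK at 0.37 without NGP DMSO replicate 2. TIMP3 was at 0.33 and MMP16, the fall, at -0.13 without NGP DMSO replicate 1. In CHLA-20, MMP15 was at 0.12 without CHLA-20 DMSO replicate 1, and MMP14 at -0.15 without CHLA-20 DMSO replicate 2. MMP2, a gelatinase, rose in both lines, by 0.32 ± 0.04 in CHLA-20 and 0.21 ± 0.04 in NGP (edgeR adjusted p = 1.35e-10 and 4.5e-06). Other basement membrane proteins fell in 11 of 15 tested genes in CHLA-20 and rose in 1 (median -0.37), beside 22.4% lower and 16.9% higher over all genes. NGP had 3 falls and 2 rises (33.3%, near the 36.2% of all genes; median 0.06). Nidogen NID1, which links laminin to collagen IV, went from 369 and 359 CPM to 244 and 246 CPM in CHLA-20 and fell by 0.57 ± 0.04 (edgeR adjusted p = 1.18e-19), against -0.01 ± 0.05 in NGP (edgeR adjusted p = 0.912). Perlecan (HSPG2) fell by 0.94 ± 0.06 in CHLA-20 and 0.29 ± 0.05 in NGP (edgeR adjusted p = 3.25e-20 and 3.08e-06). Agrin (AGRN), which clusters receptors at the nerve-muscle synapse, fell by 0.72 ± 0.07 in CHLA-20 and rose by 0.70 ± 0.08 in NGP (edgeR adjusted p = 7.84e-14 and 3.59e-10). SPARC, a collagen-binding glycoprotein, fell by 0.14 ± 0.04 in CHLA-20 (edgeR adjusted p = 0.00825), a call lost without CHLA-20 DMSO replicate 1 (-0.12), CHLA-20 DMSO replicate 2 or CHLA-20 JSK591 replicate 2 (-0.13 each). It was at -0.05 ± 0.04 in NGP (edgeR adjusted p = 0.362).

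**Figure D4:**
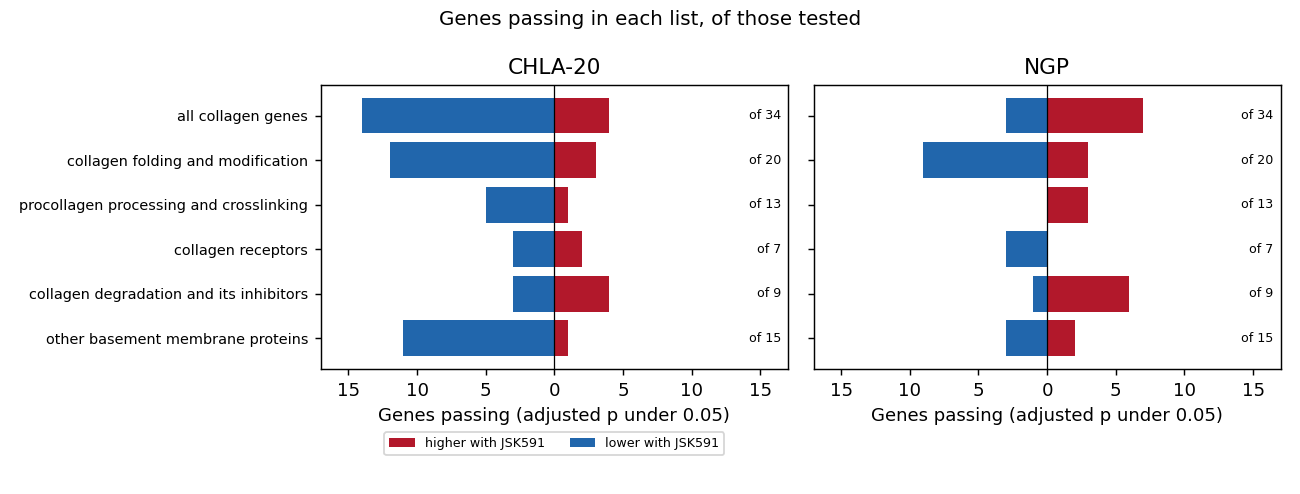
Number of genes that fell (blue, left) or rose (red, right) with JSK591 at an adjusted p under 0.05 in CHLA-20 and NGP, for all collagen genes and 5 lists of related genes, with the number tested at the right. In CHLA-20 falls outnumber rises in every list except collagen degradation and its inhibitors (4 rises and 3 falls). In NGP rises outnumber falls for the collagens (7 and 3), procollagen processing and crosslinking (3 and 0) and collagen degradation (6 and 1). None of the 3 NGP rises in processing and crosslinking passed with DESeq2, and some degradation calls ended with a library left out.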

How the data were processed

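RNA enriched for messenger RNA was sequenced in 8 libraries on a DNBseq instrument, per the labels' protocols. The authors deposited unnormalised counts for each gene. The submitters' processing notes name STAR, HTSeq, DESeq2 and the GRCh38 (hg38) genome, and their versions, annotation and strandedness are not given in the sources used here. Rows that name no gene stayed out of totals and tests: 5.15% to 6.86% of a library's reads hit no feature, 6.77% to 7.18% were ambiguous and 19.2% to 22% aligned more than once.

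All 58721 identifiers, with their versions, matched GENCODE release 29. Counts were fitted with edgeR 4.0.16 (R 4.3.3, limma 3.58.1): filterByExpr, TMM and 1 quasi-likelihood model of the 4 groups over all 8 libraries, with a common dispersion of 0.000761 on 4 residual degrees of freedom. The SE was derived from the F value. The script was tested on simulated data with known changes. Replicates differed by more than sampling noise (chi-square per degree of freedom 2.11 to 3.25; treatments within a line 21.3 to 29.9, lines 251 to 287), so none was counted as a repeat of another.

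Lengths and GC content came from GENCODE transcripts. Alternatives were DESeq2 1.42.0, total count scaling, other filters, a replicate block, removal of the GC trend and leaving out each library. The members and lists were chosen with earlier results of these data known. Values for every library are given for collagen genes that passed in a treatment contrast with a log2 change of at least 0.5 and a mean of at least 1 CPM, and for COL1A1, COL1A2, COL3A1, COL4A1, COL4A2, COL6A1, COL6A2, COL6A3 and COL18A1. From each other list, genes came from the up to 4 largest passing changes per contrast without overlap, plus SERPINH1, P4HB, LOX, ITGB1 and SPARC, and not all that qualified are named.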

Additional observations from a re-analysis of the deposited data

Results flagged for a closer look

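The test of the difference between the 2 treatment effects passed for 13 collagen genes, given as NGP change minus CHLA-20 change on the log2 scale (edgeR, adjusted p under 0.05). All values are positive. They were 0.79 for COL1A1, 0.48 for COL4A2, 0.85 for COL5A1, 0.68 for COL6A1, 0.29 for COL6A2, 0.88 for COL6A3, 1.59 for COL8A2, 0.81 for COL9A2, 1.71 for COL11A1, 0.71 for COL18A1, 1.07 for COL23A1, 1.11 for COL25A1 and 1.28 for COL27A1. Leaving out single libraries ended the call for 3 of them. COL8A2 was at 1.20 without NGP DMSO replicate 2, 1.64 without NGP JSK591 replicate 1 and 1.49 without NGP JSK591 replicate 2. COL11A1 was at 1.19 without CHLA-20 DMSO replicate 1, 0.71 without CHLA-20 JSK591 replicate 1, 6.35 without CHLA-20 JSK591 replicate 2 (still passing), 1.59 without NGP DMSO replicate 2 and 1.62 without NGP JSK591 replicate 1. COL23A1 was at 0.97 without CHLA-20 DMSO replicate 2, 0.82 without CHLA-20 JSK591 replicate 2, 0.98 without NGP DMSO replicate 1 and 0.93 without NGP JSK591 replicate 2. With the GC trend removed, COL6A2 (0.01), COL8A2 (1.39) and COL23A1 (0.80) did not pass. COL23A1 did not pass with DESeq2 (1.05), nor COL8A2 (1.59) and COL11A1 (1.70) with no filter on low counts.

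The same test passed for 33 of the 64 tested genes of the 5 related lists (51.6%, beside 27.7% of all genes tested). Of these, 27 are among the 45 genes that the naming rule chose for their large changes, and the 6 others were PLOD2 (0.27), P3H3 (0.29), PPIB (-0.36), LAMA1 (0.42), LAMB2 (0.39) and LAMC1 (0.25). Positive differences were 0.34 for PLOD3, 0.56 for COLGALT2, 0.22 for P3H1 and 0.64 for P3H4 in folding and modification, and 0.59 for ADAMTS14, 0.61 for LOX, 1.04 for LOXL2 and 0.55 for LOXL3 in processing and crosslinking. In the receptors they were 0.88 for MRC2 and 1.32 for ITGA11, and in degradation 0.94 for MMP14, 0.61 for CTSK and 0.32 for TIMP2. Among basement membrane proteins they were 1.04 for LAMA5, 0.56 for NID1, 0.65 for HSPG2, 1.42 for AGRN and 3.65 for LAMA2, whose CHLA-20 groups hold 13 and 1 counts. Negative differences were -0.47 for P4HA1, -0.18 for P4HB, -0.38 for PLOD1 and -0.37 for SERPINH1 in folding, -0.41 for PCOLCE in processing, -0.65 for ITGA1 and -0.52 for ADGRG1 in the receptors, and -0.63 for MMP16 and -0.33 for TIMP1 in degradation.

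Some of these calls ended when 1 library was left out. TIMP1 was at -0.26 without CHLA-20 DMSO replicate 1, and P4HB at -0.15 without CHLA-20 JSK591 replicate 1. ITGA11 was at 0.99 without NGP DMSO replicate 2 and 1.16 without NGP JSK591 replicate 1. LAMA2 was at 2.57 without CHLA-20 DMSO replicate 1 and 2.78 without CHLA-20 JSK591 replicate 1. LOX was at 0.16 without CHLA-20 DMSO replicate 2, 0.37 without CHLA-20 JSK591 replicate 1, 0.49 without NGP DMSO replicate 1 and 0.53 without NGP JSK591 replicate 1. CTSK was at 0.48 without CHLA-20 DMSO replicate 2, 0.52 without CHLA-20 JSK591 replicate 2, 0.40 without NGP DMSO replicate 2 and 0.46 without NGP JSK591 replicate 1. P3H1 lost its call without any 1 of 7 libraries, all but NGP JSK591 replicate 2, with values of 0.11 to 0.23. With the GC trend removed, ADAMTS14 (0.39) and PLOD3 (0.13) no longer passed, and values that moved by more than 1.5 times but still passed were 0.40 for HSPG2, -0.34 for P4HB and -0.62 for PCOLCE. LOX was at 0.92 without CHLA-20 DMSO replicate 1 and LAMA2 at 5.97 without CHLA-20 JSK591 replicate 2, both still passing.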

How the results depend on the processing

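Calls for collagen genes that passed under every alternative that tested them numbered 12 of 18 in CHLA-20, 8 of 10 in NGP, 9 of 13 for the difference between lines and 26 of 27 between the vehicle groups. The 4 genes higher in CHLA-20 became 2 with DESeq2 and 2 with at least 10 counts in every library, a filter that left 20 collagen genes. That filter also left 16 differences between the vehicle groups, 9 higher and 7 lower, since fewer genes were tested. Of all 14520 genes that it kept, 7148 passed in CHLA-20 and 11442 between the vehicle groups. For the difference between lines, where 0 collagen genes passed in the lower direction, 1 did with the GC trend removed, and leaving out libraries in turn gave 0 to 1. DESeq2 called 15 (2 higher and 13 lower) in CHLA-20, 8 in NGP, 12 for the difference between lines and 27 between the vehicle groups. Over all 19395 genes DESeq2 called 5718, 5228, 3872 and 13356 in the same order, each fewer than edgeR. Directions turned for COL3A1 in CHLA-20 (-0.01 without CHLA-20 JSK591 replicate 2) and COL4A1 in CHLA-20 (-0.02 without CHLA-20 DMSO replicate 1, -0.01 without CHLA-20 JSK591 replicate 1), neither of which was called. Over the libraries left out in turn, COL3A1 in CHLA-20 ranged from -0.01 to 0.24 and COL4A1 from -0.02 to 0.10. With the GC trend removed they turned for MRC2 between the vehicle groups (0.08), P3H4 in CHLA-20 (0.02) and P4HB between the vehicle groups (0.14), and the cause was not tested. COL4A1 passed for the difference between lines without NGP JSK591 replicate 2 (0.34, edgeR adjusted p = 0.0337). The alternatives moved the median of all genes by less than 0.1.

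Over all genes tested, deviations of libraries with the same replicate number correlated at -0.027 to 0.012. That check weighs genes of low counts like all others and could miss a small shared deviation, so it cannot settle whether the numbers pair libraries. A replicate block within each line gave 18 collagen genes in CHLA-20, 10 in NGP, 13 for the difference and 27 between the vehicle groups. Over all 19395 genes it gave 7599, 6977, 5312 and 14617 in the same order. The block changed the call of none of the 202 single results. Leaving out a library leaves 1 in its group, assumed to vary like the other groups. For the 9 of 44 collagen genes detected in neither line, no group had at least 10 counts in both libraries. Of these only COL2A1 was tested, with 2 to 14 counts in a library, and it passed in no contrast. COL11A2 is taken up below, and the others are too shallow here to show a change.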

Other observations

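COL11A2 and the collagen receptor DDR1 both had 0 counts in all 8 libraries, and both lie at the ends of 1 interval of chromosome 6 (chr6:30876421-33192499), chosen after their values were seen. Of the 109 protein-coding genes inside it, 95 (87.2%) had 0 counts in every library, against 1805 of 19940 protein-coding genes (9.05%) on all chromosomes. The 0 counts of COL11A2 and DDR1 are therefore not read as a lack of expression, and the cause was not tested.

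Collagen genes that neighbour each other on a chromosome did not always share a call. COL3A1 and COL5A2, tail to tail with 19.1 kb between them, were at 0.12 ± 0.13 and 0.46 ± 0.15 in CHLA-20, and only COL5A2 passed. COL19A1 was detected in both lines, in CHLA-20 only with JSK591 (13 and 10 counts), and COL9A1, 5.1 kb away, in CHLA-20 alone. COL4A5 and COL4A6 start 346 bases apart and were both detected in CHLA-20 alone, COL4A6 only with JSK591 (12 and 17 counts).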
